A study of Mus musculus with 9 samples.

Results

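The genes described here are 10 members of the transforming growth factor beta (TGF-beta) system, the ligand genes Tgfb1, Tgfb2 and Tgfb3, the receptor genes Tgfbr1, Tgfbr2 and Tgfbr3, the latent TGF-beta binding protein genes Ltbp1, Ltbp2 and Ltbp3, and the activin subunit gene Inhba. They were chosen by gene name, and all transcripts that carried one of these names were summed. All 10 were among the 41710 gene names of the mouse heart tables, with 54 annotated transcripts, of which 44 had at least 1 read in some library, and all 10 passed the filter on low counts.

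The libraries came from whole hearts of male mice of the FVB/N strain, kept on a standard rodent diet to an age of 8 months, frozen, pulverised and sequenced as fragmented, random-primed mRNA in single reads of 50 bases. Each of 3 groups held 3 libraries, numbered in the labels as separate hearts of the group. Tg-RKIP mice carried a transgene for RKIP, the Raf kinase inhibitor protein encoded by Pebp1, and the study describes its RKIP-transgenic lines as driven by the alpha-MHC promoter, which acts in heart muscle cells. The labels of the Tg-GRK2 group name a transgene for the G protein-coupled receptor kinase GRK2, with a promoter that is not given in the sources used here, and the FVB group carried no transgene. The founder line behind each transgenic group is not given in the sources used here. In whole-tissue RNA, fewer cells of a type and less RNA per cell cannot be told apart.

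TGF-beta is made as a precursor whose propeptide stays bound to the growth factor and keeps it inactive, and a latent TGF-beta binding protein tethers this complex to the extracellular matrix. Integrins and matrix proteins release the factor, which then brings together the type II receptor Tgfbr2 and the type I receptor Tgfbr1, often with the help of the co-receptor Tgfbr3, also called betaglycan, and the activated receptors phosphorylate Smad2 and Smad3. In the heart the pathway is known for turning fibroblasts into matrix-producing cells, and activin, a dimer of inhibin beta subunits, feeds the same Smad branch through its own receptors.

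The libraries held 25458108 to 33447654 assigned reads. Pebp1, the gene the RKIP transgene carries, was read 255727, 321666 and 252196 times in Tg-RKIP and 7289, 8446 and 7140 times in FVB, a log2 fold change of 4.81 (SE 0.019, adjusted p = 4.04e-33, edgeR). Grk2 had 27.3 ± 2.90 TPM (SD, n = 3) in the Tg-GRK2-labelled libraries and 27.1 ± 1.05 TPM in FVB, and edgeR did not call the difference (log2 fold change 0.05, adjusted p = 0.354). The Grk2 row therefore does not set these libraries apart, and they are named by their label alone. Mitochondrial genes took 11.5% to 11.8% of the reads in Tg-RKIP, 22.4% to 22.9% in the Tg-GRK2-labelled libraries and 22.9% to 23.2% in FVB, so the choice of scaling matters for Tg-RKIP. Taken over every tested gene, the median log2 ratio between Tg-RKIP and FVB came to 0.01 by TMM scaling (the trimmed mean of M-values used in edgeR), 0.38 when reads were scaled to library size alone and 0.43 on TPM values. The share of called genes that were higher was 49.8%, 78.6% and 82.0% in the same order. Reads per gene below are set against each other with TMM scaling unless another scale is named, TPM (a scale that divides by transcript length) is used to compare genes, and a gene is called at an adjusted p under 0.05.

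The makeup of the tissue RNA differed between the groups beside every result below. The summed level of 7 fibroblast markers, none of them at 0, was 1043 to 1062 TPM in FVB, 1215 to 1266 TPM in the Tg-GRK2-labelled libraries and 2112 to 2132 TPM in Tg-RKIP, and 6 of the 7 rose and 1 fell in Tg-RKIP against FVB. The 8 cardiomyocyte markers, also with none at 0, summed to 55550 to 55813 TPM in FVB and 51388 to 52412 TPM in Tg-RKIP, and 7 of them fell. The 6 macrophage markers summed to 111 to 112 TPM in FVB against 273 to 280 TPM in Tg-RKIP, and 5 rose and 1 fell. These calls used TMM scaling. With library-size scaling, and also on log2(TPM + 0.1), all 7 fibroblast and all 6 macrophage markers rose. On the same 2 scales 2 cardiomyocyte markers rose and 6 fell. Markers of airway cells summed to at most 0.0739 TPM in FVB, where Scgb1a1, Scgb3a2, Sftpc and Bpifa1 had no value above 0 in any library, and to 84.8 to 90.3 TPM in Tg-RKIP and 180 to 191 TPM in the Tg-GRK2-labelled libraries. In Tg-RKIP against FVB all 6 epicardial markers (29.6 to 32.2 TPM in FVB, 82.3 to 84.3 in Tg-RKIP), all 6 adipocyte markers (595 to 626 and 918 to 944 TPM), all 5 platelet markers (25.7 to 26.5 and 51.8 to 61.0 TPM) and all 3 tested of 6 cartilage markers (3.54 to 4.18 and 65.5 to 66.8 TPM summed over the 6) rose. Endothelial markers (259 to 265 TPM in FVB, 369 to 375 in Tg-RKIP) split into 3 higher and 3 lower, and smooth muscle and pericyte markers (320 to 329 and 303 to 309 TPM) into 2 and 4. On log2(TPM + 0.1) these splits were 3 and 1 for endothelial and 3 and 2 for smooth muscle and pericyte markers (limma). Atrial markers (5808 to 5950 and 22050 to 22654 TPM) split into 2 and 3, or 3 and 1 with library-size scaling. Nppa made up most of this sum, with a mean of 3898 TPM in FVB and 19219 TPM in Tg-RKIP. Myl4 stood at 1045 and 2532 TPM and Myl7 at 673 and 369 TPM. In the Tg-GRK2-labelled libraries against FVB, 6 of 7 fibroblast, 4 of 6 epicardial and 3 of 5 platelet markers rose and none fell. Of the 6 macrophage markers 3 rose and Cd163 fell. Of the 8 cardiomyocyte markers 6 fell, while Myh6 and Ryr2 rose. On log2(TPM + 0.1) 3 of these 8 were higher and 2 lower (limma). Of the 6 adipocyte markers 4 rose and 1 fell, while their summed level was 511 to 546 TPM. The part of these cells in the results was not tested. Of all tested genes, 36.8% were called higher and 37.1% lower in Tg-RKIP against FVB. In the Tg-GRK2-labelled libraries 12.2% were called each way.

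In Tg-RKIP hearts 8 of the 10 genes were higher and 2 were lower than in FVB hearts (edgeR), where 36.8% of all 15504 tested genes were called higher and 37.1% lower. Their median log2 fold change was 0.64, where it was 0.01 over every tested gene. Ltbp2 showed the widest difference, followed by Tgfb3, Tgfb2 and Ltbp3. These were also the 4 genes whose change was past a fold of 1.5 by a test against that fold, where 12.7% of all genes passed upwards and 10.9% downwards. Both genes with lower values, Tgfbr3 and Ltbp1, turned higher when reads were scaled to library size alone or when TPM was used, so that all 10 were then called higher, on scales where 62.6% and 66.3% of all tested genes were called higher. The same FVB libraries were the reference for the Tg-GRK2-labelled libraries, where 3 of the 10 were called higher and none lower (edgeR), against 12.2% of all genes called higher and 12.2% lower. At an unadjusted p under 0.05, 5 of the 10 passed, where 34.4% of all genes did.

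**Figure D1:**
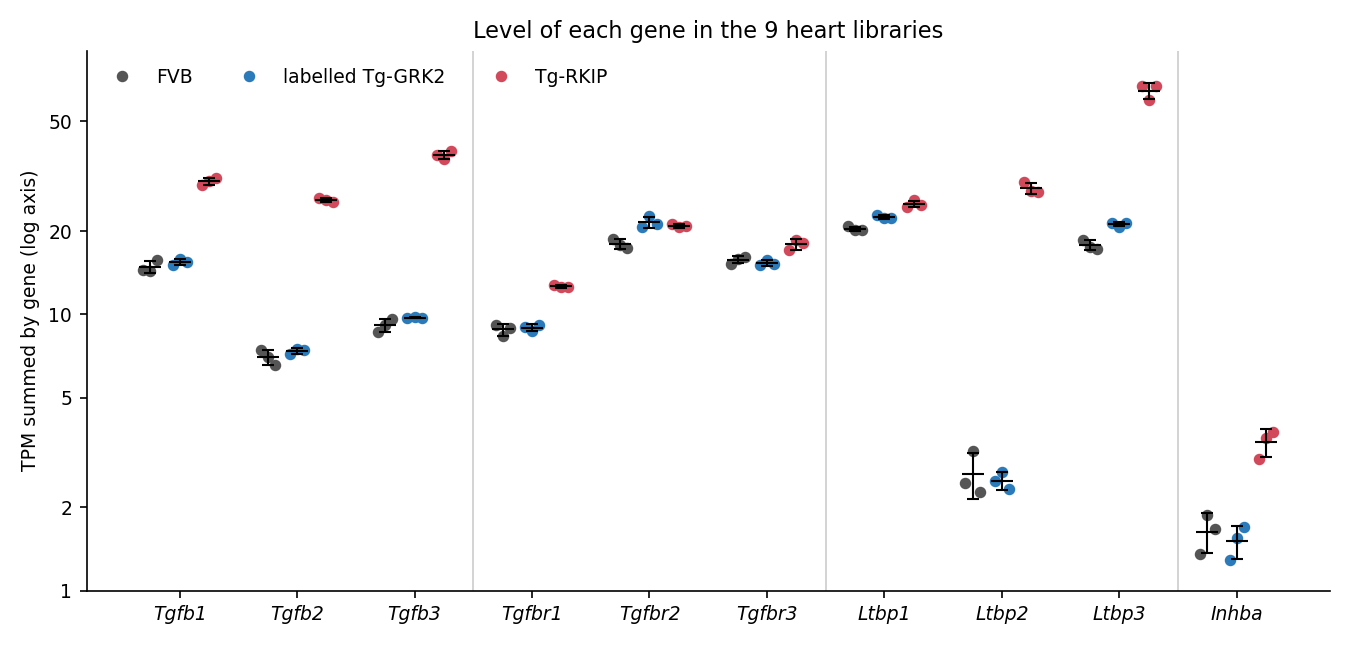
Level of each gene, as TPM summed over its transcripts on a log axis, in the 9 libraries, where each point is a library and bars give the mean ± SD of a group (n = 3). Ltbp2 stands at 27.8 to 30.1 TPM in Tg-RKIP and at 2.28 to 3.21 TPM in FVB, while Tgfbr2 at 20.6 to 21.2 TPM overlaps with the Tg-GRK2-labelled libraries at 20.8 to 22.7 TPM.

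Tgfb1 (GRCm39, chr7:25386427-25404502, plus strand) encodes the isoform best known from injury and fibrosis. It had 1072, 1420 and 1109 reads in Tg-RKIP, 616, 630 and 723 in the Tg-GRK2-labelled libraries, and 572, 646 and 581 in FVB. Per length this was 29.4, 30.5 and 31.2 TPM in Tg-RKIP against 14.5, 14.3 and 15.7 TPM in FVB, so the groups did not overlap. The log2 fold change of Tg-RKIP over FVB was 0.63 (SE 0.041, adjusted p = 7.58e-12, edgeR). The test against a fold of 1.5 did not call it (adjusted p = 0.177, edgeR), which does not show that the change was smaller than that. The libraries labelled Tg-GRK2, at 15.1 to 15.9 TPM, overlapped with FVB.

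Tgfb2 (chr1:186354989-186438186, minus strand) encodes the isoform with a leading role in heart development, which depends on the co-receptor for tight receptor binding. The counts were 2169, 2727 and 2034 reads in Tg-RKIP, 654, 570 and 772 in the Tg-GRK2-labelled libraries, and 663, 653 and 570 in FVB. All 3 Tg-RKIP libraries lay above all 6 others. Per length Tg-RKIP reached 26.0 ± 0.459 TPM and FVB 6.99 ± 0.436 TPM (SD, n = 3), a ratio of 3.72 on the TPM scale, and the log2 fold change of the reads was 1.51 (SE 0.048, adjusted p = 2.21e-17, edgeR).

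Tgfb3 (chr12:86103519-86125815, minus strand) encodes the remaining isoform, known from palate and lung development. It had 2132, 2682 and 2193 reads in Tg-RKIP, 621, 604 and 706 in the Tg-GRK2-labelled libraries, and 529, 640 and 585 in FVB. Again no Tg-RKIP library came near the others. With 37.8 ± 1.25 TPM in Tg-RKIP against 9.13 ± 0.513 TPM in FVB (SD, n = 3) the TPM ratio was 4.14, and the log2 fold change of the reads was 1.63 (SE 0.042, adjusted p = 4.07e-19, edgeR).

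The order of the ligand genes by TPM was therefore not the same in the groups. In FVB hearts Tgfb1 led with 14.8 TPM, ahead of Tgfb3 with 9.13 and Tgfb2 with 6.99, and the ranges of these 3 genes did not overlap. In Tg-RKIP hearts Tgfb3 led with 37.8 TPM, ahead of Tgfb1 with 30.4 and Tgfb2 with 26.0, again with separate ranges. The share of Tgfb1 in the summed ligand TPM was 32.3% ± 0.708 in Tg-RKIP and 47.9% ± 1.15 in FVB (SD, n = 3), a difference of -15.7 percentage points. The share of Tgfb3 was 40.1% ± 0.715 against 29.5% ± 1.10, and that of Tgfb2 was 27.6% ± 0.845 against 22.6% ± 1.91. None of these shares overlapped between the groups, and for each the two-sided exact permutation test gave p = 0.1, the smallest that 3 libraries against 3 allow. In the Tg-GRK2-labelled libraries the shares of Tgfb1, Tgfb3 and Tgfb2 were 47.5%, 29.9% and 22.6%.

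The 250 bases upstream of the Tgfb2 start are shown because Tgfb2 is the ligand gene with a window in the reference and a call in the test against a fold of 1.5. The bases come from RefSeq on the older build GRCm38.p6 (chr1:186705990-186706239, minus strand), 5′ to 3′, with matches to searched motifs in capitals.
Tgfb2: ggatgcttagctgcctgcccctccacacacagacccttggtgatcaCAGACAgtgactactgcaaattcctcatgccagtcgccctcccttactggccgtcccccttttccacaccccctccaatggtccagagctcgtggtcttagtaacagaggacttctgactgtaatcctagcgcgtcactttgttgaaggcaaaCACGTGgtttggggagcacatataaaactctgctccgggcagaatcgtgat
The capitals mark 1 CAGACA, the Smad-binding element, 204 bases upstream of the start, and 1 CACGTG, the E-box, 51 bases upstream. Of the 10 genes, 8 had such an entry, with 10 start windows in all. Both strands were searched for 6 motifs, and no marked matches overlap in the windows printed. Among all 32851 promoter windows of this length, the Smad-binding element CAGACA was in 17.1% and the E-box CACGTG in 6.02%, the cAMP response element TGACGTCA was in 1.55% and the GC box, written GGGCGG, in 32.7%. The palindromic Smad element GTCTAGAC was in 0.167% of all windows and the AP-1 motif TGANTCA in 6.75%, and the 10 windows held neither. A match describes the letters and is not evidence of a bound site.

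Tgfbr1 (chr4:47353222-47414931, plus strand), the type I receptor kinase that phosphorylates Smad2 and Smad3, had 1221, 1562 and 1192 reads in Tg-RKIP, 984, 912 and 1109 in the Tg-GRK2-labelled libraries, and 953, 969 and 911 in FVB. Its TPM was 12.6 ± 0.128 in Tg-RKIP and 8.82 ± 0.443 in FVB (SD, n = 3), and the groups were apart. The log2 fold change of the reads was small, 0.12 (SE 0.040, adjusted p = 0.012, edgeR), and it was no longer called without FVB replicate 2 (0.07, adjusted p = 0.15, edgeR) or with its most abundant transcript alone (0.08, adjusted p = 0.142, edgeR). It was 0.49 with library-size scaling and 0.51 on log2(TPM + 0.1).

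Tgfbr2 (chr9:115913361-116004428, minus strand), the type II receptor that binds the ligand first, had 2732, 3520 and 2642 reads in Tg-RKIP, 2135, 2214 and 2503 in the Tg-GRK2-labelled libraries, and 1910, 2075 and 1799 in FVB. It was the highest of the receptor genes in every group by TPM, at 20.9 ± 0.312, 21.6 ± 0.979 and 18.0 ± 0.733 TPM in that order (SD, n = 3). Over FVB the log2 fold change was 0.25 in Tg-RKIP (SE 0.028, adjusted p = 7.14e-08, edgeR) and 0.15 in the Tg-GRK2-labelled libraries (SE 0.029, adjusted p = 0.00058, edgeR). The most abundant transcript alone gave 0.72 in Tg-RKIP (adjusted p = 8.84e-08, edgeR) and 0.05 in the Tg-GRK2-labelled libraries (adjusted p = 0.393, edgeR). Both sets of libraries lay above all FVB libraries.

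Tgfbr3 (chr5:107254436-107437495, minus strand), the co-receptor that presents ligand to Tgfbr2, had 1736, 2451 and 1834 reads in Tg-RKIP, 1734, 1751 and 1967 in the Tg-GRK2-labelled libraries, and 1670, 1996 and 1761 in FVB. Its log2 fold change of Tg-RKIP over FVB was -0.22 with TMM scaling (SE 0.036, adjusted p = 1.21e-05, edgeR), 0.15 with library-size scaling (adjusted p = 0.000638, edgeR) and 0.18 on log2(TPM + 0.1) (adjusted p = 0.00393, limma). With mitochondrial genes left out of the library size it was -0.05 and not called (adjusted p = 0.243, edgeR). Its direction thus followed the scaling, and the size was small on each scale.

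Against the ligand genes, the receptor genes moved little per length. The summed receptor TPM was 51.5 ± 0.390 in Tg-RKIP and 42.6 ± 0.614 in FVB (SD, n = 3), a ratio of 1.21, where the summed ligand TPM was 94.2 ± 1.52 and 31.0 ± 0.781, a ratio of 3.04. The ratio of summed ligand TPM to summed receptor TPM was 1.83, 1.80 and 1.86 in Tg-RKIP, 0.712, 0.704 and 0.715 in the Tg-GRK2-labelled libraries, and 0.706, 0.726 and 0.749 in FVB. In Tg-RKIP the ligand transcripts outnumbered the receptor transcripts by TPM, and in both other groups it was the other way round. By reads, which are not divided by length, the receptor genes together stayed ahead of the ligand genes in every library of every group. The difference between Tg-RKIP and FVB was 1.10 (two-sided exact permutation test, p = 0.1, the smallest possible), or 0.543 with reads in place of TPM, and that between the Tg-GRK2-labelled libraries and FVB was -0.0164 with overlapping values (p = 0.3, exact). This ratio was not among the planned tests. It is formed within each library, and a scaling factor common to all genes of a library cancels in it. Within the receptor sum, the share of Tgfbr1 was 24.5% ± 0.418 in Tg-RKIP and 20.7% ± 0.771 in FVB, with no overlap (exact p = 0.1), but the difference of 3.82 percentage points shrank to 0.868 with reads in place of TPM and turned to -1.07 with the most abundant transcript of each gene alone, while the shares of Tgfbr2 (40.6% and 42.2%, exact p = 0.2) and Tgfbr3 (34.9% and 37.1%, exact p = 0.3) overlapped. The difference in the Tgfbr2 share, -1.60 percentage points by TPM, turned to 5.94 with reads and 12.8 with the most abundant transcript, and that of Tgfbr3 went from -2.22 to -6.81 and -11.7. In all, 18 such share comparisons were made, and with 3 libraries a group no p can fall under 0.1, before or after adjustment over the 18.

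**Figure D2:**
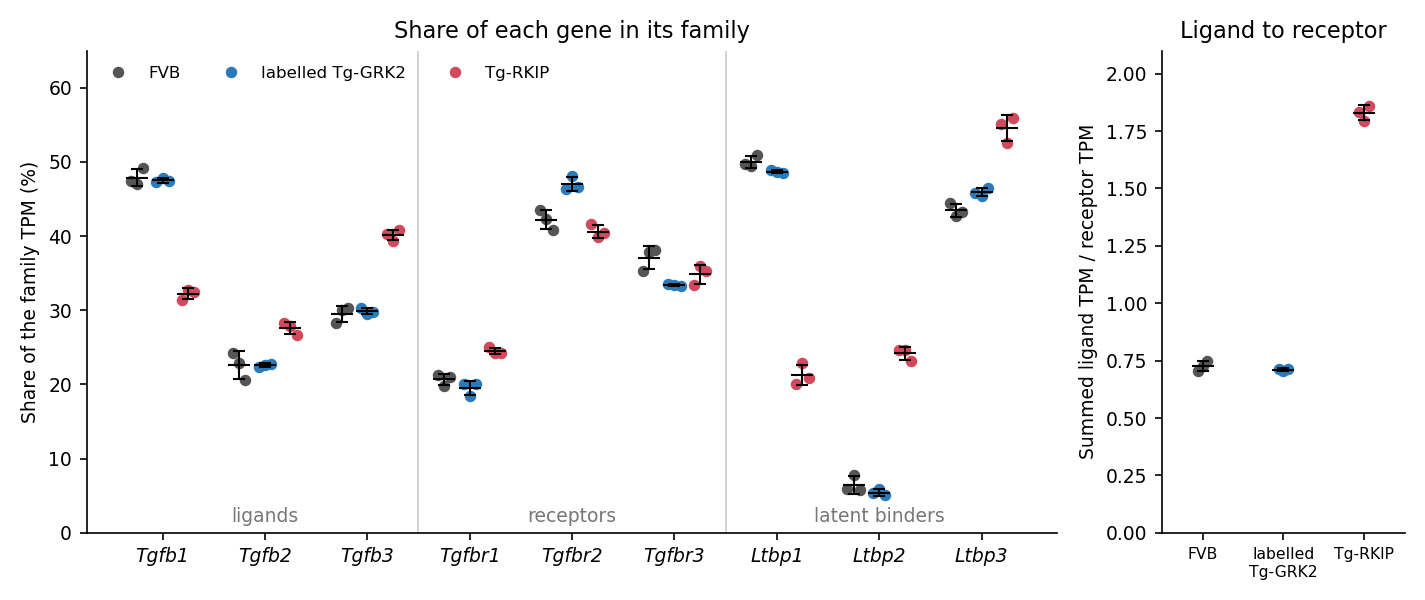
Left, the share of each gene in the summed TPM of its family (ligands, receptors or latent binders), in percent, and right, the ratio of summed ligand TPM to summed receptor TPM, with a point for each library and bars for the mean ± SD of a group (n = 3). The ratio is 1.80 to 1.86 in Tg-RKIP and 0.706 to 0.749 in FVB, and the share of Ltbp1 among the latent binders is 21.3% in Tg-RKIP against 50.0% in FVB.

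Ltbp2 (chr12:84829986-84923306, minus strand) encodes a family member that, unlike its relatives, is not known to bind the latent TGF-beta complex and that attaches to fibrillin microfibrils and elastic fibres. It had 2771, 3371 and 2628 reads in Tg-RKIP, 275, 274 and 256 in the Tg-GRK2-labelled libraries, and 233, 298 and 214 in FVB. No other gene of the 10 set Tg-RKIP so far from the other groups. The level was 28.6 ± 1.31 TPM in Tg-RKIP, with 2.65 ± 0.496 TPM in FVB (SD, n = 3), a TPM ratio of 10.8, and the log2 fold change of the reads was 3.19 (SE 0.056, adjusted p = 4.44e-22, edgeR).

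Ltbp3 (chr19:5790932-5808560, plus strand) encodes a binder that joins the latent complex in the cell and is needed for its secretion. It had 3186, 3846 and 3152 reads in Tg-RKIP, 1426, 1504 and 1593 in the Tg-GRK2-labelled libraries, and 1143, 1204 and 1117 in FVB, so all 3 groups were apart. The log2 fold change over FVB was 1.19 in Tg-RKIP (SE 0.038, adjusted p = 2.44e-17, edgeR) and 0.29 in the Tg-GRK2-labelled libraries (SE 0.042, adjusted p = 2.06e-05, edgeR), the widest of the 3 differences called in those libraries.

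Ltbp1 (chr17:75312563-75699507, plus strand) encodes the binder that ties the latent complex to fibronectin and fibrillin. It had 1951, 2603 and 1868 reads in Tg-RKIP, 2291, 2169 and 2533 in the Tg-GRK2-labelled libraries, and 2010, 2233 and 1893 in FVB. For Tg-RKIP the log2 fold change over FVB was -0.31 with TMM scaling (SE 0.029, adjusted p = 4.31e-09, edgeR), 0.07 with library-size scaling (adjusted p = 0.0398, edgeR) and 0.30 on log2(TPM + 0.1) (adjusted p = 2.06e-05, limma). In the Tg-GRK2-labelled libraries it was 0.09 (SE 0.029, adjusted p = 0.0215, edgeR), a call that was lost without Tg-GRK2 replicate 1, FVB replicate 2 or FVB replicate 3 (adjusted p of 0.0843, 0.0558 and 0.102, edgeR), and the most abundant transcript alone turned it to -0.0285 (adjusted p = 0.838, edgeR).

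Among the 3 latent binder genes Ltbp1, Ltbp2 and Ltbp3, with the more abundant Ltbp4 left out of the sums and shares here, the places changed by TPM. In FVB, Ltbp1 led with 20.4 ± 0.322 TPM ahead of Ltbp3 with 17.8 ± 0.733 and Ltbp2 with 2.65. In Tg-RKIP, Ltbp3 led with 64.6 ± 4.33 TPM summed over its transcripts, followed by Ltbp2 with 28.6 and Ltbp1 with 25.1 ± 0.707 (SD, n = 3). As a share of the summed binder TPM, Ltbp1 was 21.3% ± 1.40 in Tg-RKIP and 50.0% ± 0.816 in FVB, Ltbp2 24.2% ± 0.843 and 6.47% ± 1.18, and Ltbp3 54.6% ± 1.79 and 43.5% ± 0.865, each without overlap (exact p = 0.1). The difference was 17.7 percentage points for Ltbp2 and 11.1 for Ltbp3, against 27.4 and 6.68 by reads and 26.7 and 0.106 with the most abundant transcript of each gene alone. The sum of these 3 genes was 118 ± 4.37 TPM in Tg-RKIP, with 40.9 ± 1.07 TPM in FVB, a ratio of 2.90. The ratio of binder to ligand TPM, 1.26 in Tg-RKIP and 1.32 in FVB, overlapped between the groups (exact p = 0.2). It was 1.42 in the Tg-GRK2-labelled libraries, with no overlap with FVB (exact p = 0.1).

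The upstream windows of Ltbp2 and of the 2 annotated Ltbp1 starts are set side by side because these genes lie at opposite ends of the binder family's range of fold changes. They are RefSeq windows on GRCm38.p6, 5′ to 3′, at chr12:84876492-84876741 (minus strand), chr17:75005279-75005528 (plus strand) and chr17:75178531-75178780 (plus strand), with motif matches in capitals.
Ltbp2: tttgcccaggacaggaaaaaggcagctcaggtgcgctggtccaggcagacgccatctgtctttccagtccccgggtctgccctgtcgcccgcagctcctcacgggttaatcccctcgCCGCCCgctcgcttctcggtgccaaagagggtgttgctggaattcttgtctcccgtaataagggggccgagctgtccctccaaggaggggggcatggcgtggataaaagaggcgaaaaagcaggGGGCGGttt
Ltbp1, first start: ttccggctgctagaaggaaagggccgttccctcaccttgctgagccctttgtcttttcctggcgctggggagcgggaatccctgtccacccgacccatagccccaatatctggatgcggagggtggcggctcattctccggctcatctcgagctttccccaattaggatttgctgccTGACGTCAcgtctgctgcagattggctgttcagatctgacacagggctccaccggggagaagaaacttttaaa
Ltbp1, second start: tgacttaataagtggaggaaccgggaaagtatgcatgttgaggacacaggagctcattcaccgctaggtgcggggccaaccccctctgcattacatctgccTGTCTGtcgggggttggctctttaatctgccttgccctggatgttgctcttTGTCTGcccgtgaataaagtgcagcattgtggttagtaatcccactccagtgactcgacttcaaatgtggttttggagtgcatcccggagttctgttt
The Ltbp2 window held 2 GGGCGG, the window of the first Ltbp1 start held 1 TGACGTCA 73 bases upstream, and that of the second Ltbp1 start held 2 CAGACA on the opposite strand, 149 and 98 bases upstream. The windows of Ltbp2 and Ltbp1 thus shared none of the 6 motifs.

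Inhba (chr13:16186436-16206206, plus strand), which encodes the subunit of activin A, was the lowest of the 10 genes by TPM in every group. It had 321, 493 and 398 reads in Tg-RKIP, 156, 181 and 197 in the Tg-GRK2-labelled libraries, and 157, 249 and 192 in FVB. Per length this was 3.00, 3.57 and 3.76 TPM in Tg-RKIP against 1.35, 1.88 and 1.67 TPM in FVB. The groups did not overlap on the TPM scale, and the log2 fold change of the reads was 0.65 (SE 0.10, adjusted p = 8.28e-06, edgeR). Its standard error was the widest of the 10, and its read counts were among the lowest. In the Tg-GRK2-labelled libraries the log2 fold change over FVB was -0.26 (SE 0.12, adjusted p = 0.13, edgeR), and it was called without FVB replicate 1 (-0.38, adjusted p = 0.0231).

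By TPM, the order of the 10 genes in FVB hearts ran from Ltbp1 (20.4) over Tgfbr2 (18.0), Ltbp3 (17.8), Tgfbr3 (15.8), Tgfb1 (14.8), Tgfb3 (9.13), Tgfbr1 (8.82), Tgfb2 (6.99) and Ltbp2 (2.65) down to Inhba (1.64). Of these neighbours, the ranges over libraries overlapped for Tgfbr2 and Ltbp3, for Tgfbr3 and Tgfb1, and for Tgfb3 and Tgfbr1. In Tg-RKIP hearts the order was Ltbp3 (64.6), Tgfb3 (37.8), Tgfb1 (30.4), Ltbp2 (28.6), Tgfb2 (26.0), Ltbp1 (25.1), Tgfbr2 (20.9), Tgfbr3 (17.9), Tgfbr1 (12.6) and Inhba (3.44), with overlap for Tgfb1 and Ltbp2 and for Tgfb2 and Ltbp1. Tgfbr2 and Tgfbr3, which stood above every ligand gene in FVB, thus came after all ligand and binder genes in Tg-RKIP. The Tg-GRK2-labelled libraries kept the FVB order but for Tgfb1 (15.5) and Tgfbr3 (15.3), which overlapped.

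**Figure D3:**
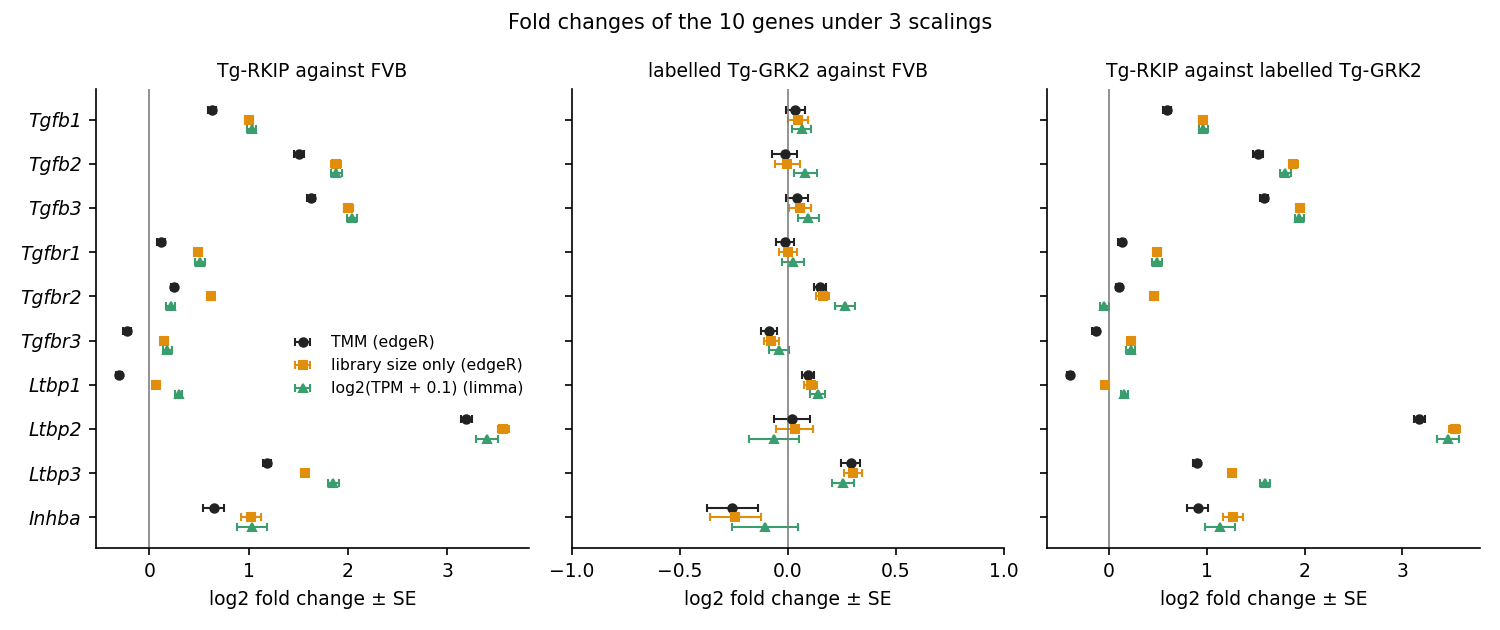
Log2 fold change of the 10 genes in the 3 comparisons under TMM scaling (circles), library-size scaling (squares) and TPM (triangles), with bars for the standard error. Under TMM scaling Tgfbr3 (-0.22) and Ltbp1 (-0.31) lie below 0 in Tg-RKIP against FVB and under the other scalings above 0, while Ltbp2 lies between 3.19 and 3.56.

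In the Tg-GRK2-labelled libraries, the ligand genes stayed near FVB. The log2 fold changes of Tgfb1, Tgfb2 and Tgfb3 were 0.03 (95% interval -0.05 to 0.12), -0.02 (-0.13 to 0.10) and 0.04 (-0.06 to 0.14), with adjusted p of 0.651, 0.885 and 0.603 in edgeR. These intervals leave room for small changes in either direction and do not show that the levels are equal. The called genes were Tgfbr2, Ltbp1 and Ltbp3, and the number called ranged from 2 to 5 when single libraries were left out, with 5 without FVB replicate 1, when Tgfbr3 and Inhba were called lower. Ltbp2, so far apart in Tg-RKIP, had a log2 fold change of 0.02 (95% interval -0.15 to 0.18, adjusted p = 0.909, edgeR). The median of the 10 genes was 0.03.

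Tg-RKIP was also set directly against the libraries that bear the Tg-GRK2 label. It was higher than the Tg-GRK2-labelled libraries for 8 of the 10 genes and lower for 2 (edgeR), where 37.9% of all genes were called higher and 36.6% lower. The log2 fold changes were 3.17 for Ltbp2, 1.59 for Tgfb3, 1.52 for Tgfb2, 0.91 for Inhba, 0.90 for Ltbp3 and 0.60 for Tgfb1, with adjusted p between 3.57e-22 and 9.54e-08 (edgeR). Summed over transcripts, the receptor genes differed by less. Tgfbr1 differed by 0.13 (adjusted p = 0.00568, edgeR, and 0.119 with the most abundant transcript alone) and Tgfbr2 by 0.10 (adjusted p = 0.00264, edgeR). The Tgfbr2 value turned to -0.05 on log2(TPM + 0.1) (adjusted p = 0.361, limma). With the most abundant transcript alone it was 0.67 (adjusted p = 1.29e-07, edgeR), above 0.54 for Tgfb1 and 0.50 for Ltbp3. Ltbp1 was lower by TMM scaling (-0.40, adjusted p = 3.6e-11, edgeR), was not called with library-size scaling (-0.04, adjusted p = 0.24, edgeR) and turned to 0.16 on log2(TPM + 0.1) (adjusted p = 0.00183, limma). Tgfbr3 was lower by TMM scaling (-0.13, adjusted p = 0.0023, edgeR) and turned to 0.23 with library-size scaling (adjusted p = 5.84e-06, edgeR) and 0.22 on log2(TPM + 0.1) (adjusted p = 0.00115, limma).

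Gene sums can hide changes between transcripts, and Tgfbr2 showed the widest. It has 2 transcripts with reads, Tgfbr2_1 with 8 exons and 8092 bases and Tgfbr2_2 with 7 exons and 3476 bases. They differ by a coding exon of 75 bases, which divides by 3 and lies in the part of the receptor outside the cell, and by the length of the 3′ untranslated region, 6085 and 1449 bases in the annotation used for this (GENCODE M21). The exon is shown in capitals with 20 bases of each neighbouring exon in lower case, which are joined directly in Tgfbr2_2. It lies at chr9:115987339-115987413 on the minus strand (GRCm39).
Tgfbr2 exon 2: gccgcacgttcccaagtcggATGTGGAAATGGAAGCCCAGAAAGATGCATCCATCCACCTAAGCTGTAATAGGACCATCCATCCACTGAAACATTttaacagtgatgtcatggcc
Tgfbr2_1 had 2622, 3450 and 2527 reads in Tg-RKIP, 1342, 1361 and 1602 in the Tg-GRK2-labelled libraries, and 1268, 1398 and 1253 in FVB. Tgfbr2_2 had 110, 70 and 115 reads in Tg-RKIP, 793, 853 and 901 in the Tg-GRK2-labelled libraries, and 642, 677 and 546 in FVB. The longer transcript had more reads in every Tg-RKIP library than in any other, and the shorter one had fewer. The share of Tgfbr2_1 in the TPM of the gene was 92.3% ± 2.75 in Tg-RKIP, 42.0% ± 1.32 in the Tg-GRK2-labelled libraries and 47.5% ± 1.92 in FVB (SD, n = 3), with no overlap between Tg-RKIP and FVB (exact permutation p = 0.1). The difference was 44.8 percentage points by TPM and 28.7 by reads. Of the bases found in Tgfbr2_1 alone, 4636 lie beyond the end of Tgfbr2_2 and 75 in the exon, so reads of 50 bases tell the transcripts apart mostly by the end of the 3′ untranslated region and not by the exon.

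Ltbp1 has a long and a short coding form that begin at separate starts. Ltbp1_6 has 34 exons, 6671 bases and a coding sequence of 5136 bases, and its start lies 39 bases from the first start printed above, on the older build. Ltbp1_9 has 30 exons, 4870 bases and a coding sequence of 4023 bases, and lies 130 bases from the second. The share of Ltbp1_6 in the TPM of the gene was 17.7%, 16.0% and 10.3% in Tg-RKIP, 36.5%, 40.1% and 34.7% in the Tg-GRK2-labelled libraries, and 31.6%, 35.6% and 31.2% in FVB. Tg-RKIP lay below the other groups in every library. The share of Ltbp1_9 was 56.4% in Tg-RKIP and 58.5% in FVB, and by reads it was higher in Tg-RKIP by 5.32 percentage points, so its direction depended on the unit. The retained-intron share ran the other way. Ltbp1_4, a transcript of 3 exons and 3277 bases annotated as a retained intron, held 27.5% ± 4.13 in Tg-RKIP and 4.45% ± 0.822 in FVB (SD, n = 3, exact permutation p = 0.1). This transcript had 351, 447 and 436 reads in Tg-RKIP, 27, 33 and 58 in the Tg-GRK2-labelled libraries, and 52, 52 and 64 in FVB.

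Ltbp3 held a retained-intron transcript as well. Ltbp3_6, of 2099 bases, had 532, 494 and 606 reads in Tg-RKIP, 32, 13 and 26 in the Tg-GRK2-labelled libraries, and 25, 41 and 21 in FVB. Its share of the TPM of the gene was 22.3% ± 3.90 in Tg-RKIP and 4.05% ± 1.17 in FVB (SD, n = 3, exact permutation p = 0.1). The full-length form Ltbp3_9, of 28 exons and 5190 bases, held 35.0% ± 2.56 of the TPM in Tg-RKIP where FVB had 53.1% ± 3.25 (exact permutation p = 0.1), but its reads were higher, 1982, 2542 and 1913 against 925, 942 and 907. The largest share in Tg-RKIP was that of Ltbp3_11, a coding transcript of 10 exons and 1387 bases, with 40.0% to 41.9% against 34.4% to 38.3% in FVB (exact permutation p = 0.1). Ltbp3_9 alone stood at 22.8, 22.6 and 22.2 TPM in Tg-RKIP and 9.81, 8.78 and 9.74 TPM in FVB, so the place of Ltbp3 ahead of Tgfb3 in Tg-RKIP rests on its shorter transcripts. With the most abundant transcript alone, the difference in the binder share of Ltbp3 went from 11.1 to 0.106 percentage points. Over all nuclear genes, transcripts annotated as retained introns took 3.09% to 3.27% of the reads in Tg-RKIP, 2.25% to 2.34% in the Tg-GRK2-labelled libraries and 2.35% to 2.46% in FVB. The mean length of the transcript behind a read was 3160 to 3193 bases in Tg-RKIP and 3628 to 3658 bases in FVB. The part of these library-wide differences in the shares of the 2 binder genes was not tested.

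**Figure D4:**
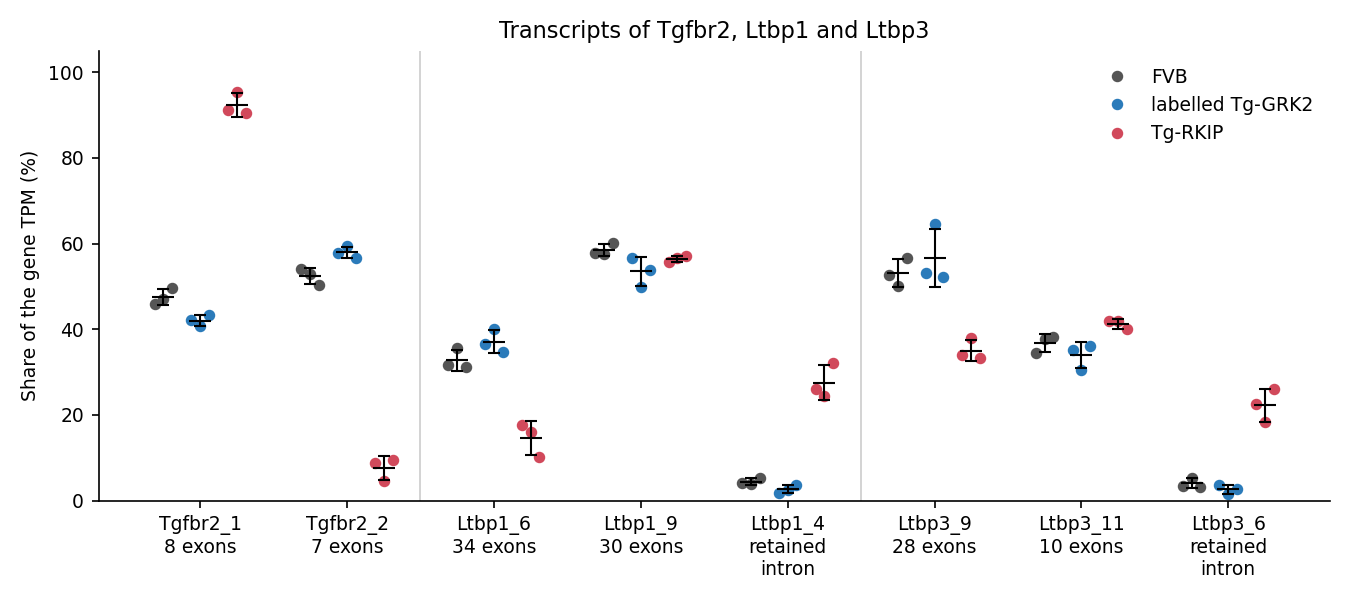
Share of single transcripts in the summed TPM of Tgfbr2, Ltbp1 and Ltbp3, in percent, with a point for each library and bars for the mean ± SD of a group (n = 3). Tgfbr2_1 takes 92.3% in Tg-RKIP and 47.5% in FVB, and the retained-intron transcripts Ltbp1_4 and Ltbp3_6 take 27.5% and 22.3% in Tg-RKIP against 4.45% and 4.05% in FVB.

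Ltbp2 gave shares that rest on few reads. Ltbp2_5 held 16.9% of the TPM in Tg-RKIP and 3.98% in FVB, where it had 0, 0 and 3 reads, and Ltbp2_6 held 1.49% and 19.1%, with 10, 12 and 5 reads in FVB, both without overlap (exact permutation p = 0.1). By reads these differences were 1.38 and -3.30 percentage points. The other genes rested mainly on 1 transcript. Tgfb3_1, Tgfbr3_3 and Inhba_1 held 100% of the TPM of their genes in Tg-RKIP, Tgfbr1_2 99.4% and Tgfb1_4 98.4%. Tgfb2_5 held 88.5% in both Tg-RKIP and FVB. The second coding form, Tgfb2_6, differs from it by an exon of 84 bases, which also divides by 3 and lies inside the coding sequence, at chr1:186422918-186423001 on the minus strand (GRCm39), shown with the same flanks because it is the second reading-frame-keeping exon choice among the 10 genes.
Tgfb2 exon 2: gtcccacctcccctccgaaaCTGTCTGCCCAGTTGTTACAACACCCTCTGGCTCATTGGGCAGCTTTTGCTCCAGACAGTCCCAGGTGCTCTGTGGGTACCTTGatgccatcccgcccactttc
Tgfb2_6 had 123, 274 and 64 reads in Tg-RKIP, 57, 15 and 41 in the Tg-GRK2-labelled libraries, and 55, 0 and 25 in FVB. The share of Tgfb2_6 in the TPM of the gene, 4.33% to 14.0% in Tg-RKIP and 0% to 11.7% in FVB, overlapped. In all, 36 transcript shares were compared.

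Around the 10 genes, the other ligands of the superfamily also ran mostly upwards in Tg-RKIP. Of 10 tested ligand genes 6 rose and 2 fell against FVB (edgeR), with a median log2 fold change of 1.03, where 36.8% of all genes rose and 37.1% fell. With library-size scaling 8 ligand genes rose and none fell (62.6% and 17.1% of all genes on that scale). Gdf6 (4.29), Gdf15 (3.68), a stress-response cytokine, Bmp4 (1.80) and Inhbb (1.76), the other activin beta subunit, rose, and Mstn (-0.89), the muscle growth inhibitor myostatin, fell. Gdf15 stood at 40.1 ± 2.12 TPM in Tg-RKIP, with 2.32 ± 0.326 TPM in FVB (SD, n = 3, adjusted p = 2.47e-19, edgeR). Bmp4, a bone morphogenetic protein, stood at 37.8 ± 1.65 and 8.19 ± 0.870 TPM, close to the level of Tgfb3 in each group.

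Of the other receptors of the superfamily, 4 rose and 5 fell of 10 tested, with a median of -0.32, and with library-size scaling 5 rose and 4 fell (all genes 36.8% and 37.1% with TMM scaling, 62.6% and 17.1% with library size). Acvr2b (-1.28) and Acvr2a (-0.71), the type II receptors for activin and myostatin, and Bmpr1a (-0.56), a type I receptor for bone morphogenetic proteins, fell. Eng (0.51), the endothelial co-receptor endoglin, and Acvr1c (2.49), a type I receptor for activins and nodal, rose, the latter from a TPM of 0.037 to 0.270.

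Of the genes for inhibitors of these ligands, 9 were higher and 1 was lower of 10 tested, with a median of 1.81. Over all tested genes, 36.8% were called higher and 37.1% lower. Fst (2.53) encodes follistatin, which traps activin, the product of Inhba, and stood at 5.66 ± 0.681 TPM in Tg-RKIP against 0.734 ± 0.124 TPM in FVB (SD, n = 3, adjusted p = 2.09e-12, edgeR). Nog (2.31) and Chrdl1 (2.09) encode antagonists of bone morphogenetic proteins. Grem1, another of these, had 18, 20 and 20 reads in Tg-RKIP, 1, 1 and 0 in the Tg-GRK2-labelled libraries and 0 in every FVB library, which in TMM-scaled CPM is at least 5.03-fold higher over a floor of 3 counts per library, and with Grem1 at that bound the median of the list was again 1.81. Inha (-0.56), whose product forms inhibin with the activin subunits, was lower, and was not called with library-size scaling.

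The SMADs and their regulators ran both ways, with 6 higher and 8 lower of 16 tested and a median of -0.06 (all genes 36.8% and 37.1%). With library-size scaling 11 were higher and 2 lower, where 62.6% of all genes were higher and 17.1% lower. Pmepa1 (1.34), Smad6 (1.00) and Smad7 (0.93), which encode inhibitors of the pathway, and the repressor gene Tgif1 (0.96) rose, while Zfyve9 (-0.73), the anchor that brings Smad2 and Smad3 to the receptor, fell. Negative regulators did not all rise. Ski was higher, but Skil, Smurf1 and Smurf2 were lower with TMM scaling, and Smurf2 was lower with library-size scaling too. Smad7 stood at 22.5 ± 0.838 TPM in Tg-RKIP, 11.2 ± 1.25 TPM in FVB and 7.72 ± 0.410 TPM in the Tg-GRK2-labelled libraries, where it fell by 0.46 on the log2 scale (SD, n = 3, adjusted p = 1.15e-07, edgeR).

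Genes of latency and activation were higher in 12 cases and lower in 2 of 15 tested, with a median of 0.68 (all genes 36.8% and 37.1%). With library-size scaling 14 were higher and 1 lower, where 62.6% of all genes were higher and 17.1% lower. Ltbp4, the remaining latent binder, was by far the most abundant of the family, at 496 ± 1.63 TPM in Tg-RKIP, with 153 ± 5.08 TPM in FVB (SD, n = 3), and rose by 0.98 on the log2 scale (adjusted p = 5.52e-22, edgeR). Thbs1 (2.36), encoding the activator thrombospondin, Fbn2 (1.65), encoding a microfibril protein that anchors latent complexes, Itgb5 (60.2 to 239 TPM), encoding an activating integrin subunit, and Emilin1 (1.44), whose product holds back processing of the precursor, rose too. Itgb6 (-1.30), encoding an epithelial activating integrin subunit, fell, to 3.26 ± 0.237 TPM from an FVB level of 6.10 ± 0.288 TPM, and rose to 10.6 ± 0.512 TPM in the Tg-GRK2-labelled libraries (log2 fold change 0.66, adjusted p = 4.11e-09, edgeR).

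All 5 matrix proteoglycans that bind TGF-beta were higher in Tg-RKIP, with a median of 1.23, where 36.8% of all tested genes were called higher and 37.1% lower. Fmod (2.26) and Bgn (2.02) led, the latter at 1082 ± 28.1 TPM against 180 ± 2.01 TPM in FVB (SD, n = 3). All 12 genes known as TGF-beta responses were higher as well, against the same 36.8% of all genes, with a median of 1.85. This list was chosen with earlier results of these data known. The paper had already reported Col1a1, Col1a2, Col3a1, Ccn2 and Fn1 as increased in these Tg-RKIP hearts, so the count is descriptive and not an independent test. Timp1 (2.78), a protease inhibitor, Col1a1 (2.55), the collagen gene, Ccn2 (2.36), connective tissue growth factor, Lox (2.34), the collagen cross-linking enzyme, and Fn1 (2.25), fibronectin, had the largest fold changes. Several of these genes are also products of fibroblasts, whose markers were higher in the same libraries, and their part was not tested. In the Tg-GRK2-labelled libraries the response genes split into 4 higher and 4 lower of 12 (12.2% of all genes each way), with Col1a1 higher by 0.61 (adjusted p = 1.02e-14, edgeR), beside the 6 of 7 fibroblast markers that rose there.

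**Figure D5:**
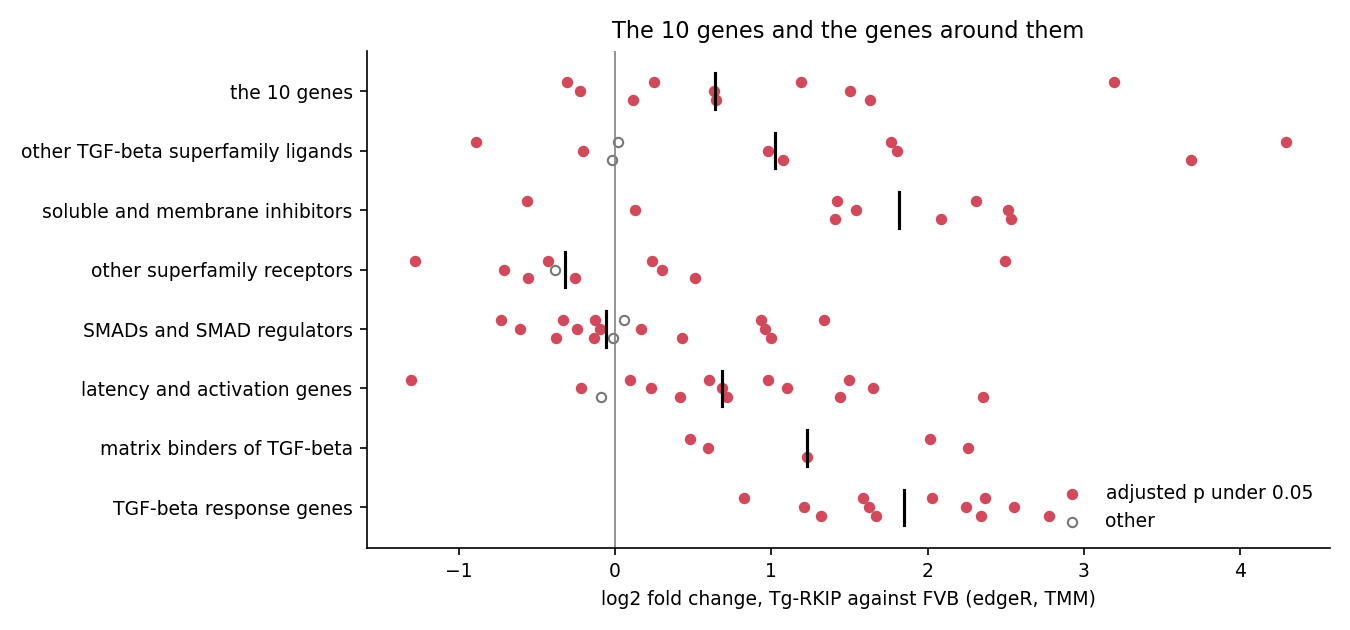
Log2 fold change of Tg-RKIP over FVB with TMM scaling for the 10 genes and 7 lists of genes around them, with filled points called at an adjusted p under 0.05 in edgeR and a bar at the median of each list. Grem1, at 0 reads in FVB, has no point, the medians run from -0.32 for the other receptors, which is above 0 with library-size scaling, to 1.85 for the response genes, and that of the 10 genes is 0.64.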

How the data were processed

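The authors deposited, for 9 mouse heart libraries, a table of read counts per transcript (127558 transcripts) and a table of TPM values per library, with no normalisation of the counts. TPM values recomputed from the deposited counts and transcript lengths matched within 5.5e-06. The genome build GRCm39 comes from the submitters' processing notes, and the aligner, the counting tool and its use of strand are not given in the sources used here. Reads and TPM were summed by gene name. Counts of 25458108 to 33447654 reads a library were fitted with edgeR 4.0.16 (R 4.3.3; quasi-likelihood, TMM, a mean per group, all 9 libraries, filterByExpr), which tested 15504 genes, with Benjamini-Hochberg adjustment over all of them and calls at 0.05. The fold test was glmTreat at 1.5. Shares and ratios were tested by the two-sided exact permutation test (scipy 1.17.1), with a smallest p of 0.1. Alternatives were DESeq2 1.42.0, limma 3.58.1 on log2 TPM with 0.1 or 1 added (genes of at least 1 TPM in 3 libraries), other scalings and filters, a replicate block, the most abundant transcript alone, and each library left out. The ligand to receptor and binder to ligand ratios were not among the planned tests. The alternatives for the ligand to receptor ratio were added after seeing the data. The fit was tested on simulated data of 14933 genes with 194 changed, of which 89.2% were recovered, with 4 false calls. At a fold of 1.5 it recovered 76.9%. The simulated libraries held few changed genes and no shift in make-up, so the test cannot bear on the choice of scaling.

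The members and lists were chosen with earlier results of these data known. Named genes were the 10 members, Pebp1, Grk2, Ltbp4 and from each list up to 5 tested genes with the largest absolute log2 fold change of Tg-RKIP against FVB. Ski, Skil, Smurf1 and Smurf2 are named beside them as further regulators, and Col1a2 and Col3a1 as genes the paper reported. Some genes that this rule or an overlap would name are not reported here. Transcripts with at least 10% of a gene's TPM in a group mean had their shares compared. Counts of libraries within a group differed by more than sampling noise (ratio 1.25 to 1.52 over 9 pairs), so all were kept as separate libraries. The ratio cannot tell libraries of separate hearts from repeated libraries of the same heart. The paper counts hearts or mice as its n for Tg-RKIP and FVB. Standard errors and p-values here measure spread between libraries, and whether this equals the spread between hearts was not tested. Promoter windows came from RefSeq on GRCm38.p6 and exon sequences from GENCODE M21 transcripts of the same length as in the deposited tables, and 2656 of 119989 shared transcript IDs had the same coordinates in both builds.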

Additional observations from a re-analysis of the deposited data

How the results depend on the processing

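With 3 libraries a group, exact tests cannot reach 0.05. Inhba, with 156 to 493 reads, had the widest standard error of the members. Of 920 recomputed values, 843 kept their direction and side of the threshold or stayed within the spread between libraries. Counts of members and of genes called in Tg-RKIP against FVB, the Tg-GRK2-labelled libraries against FVB and Tg-RKIP against the Tg-GRK2-labelled libraries became 4, 0 and 5 and 3665, 155 and 3867 under a test against a fold of 1.5. For the Tg-GRK2-labelled libraries against FVB, the most abundant transcript alone gave 1 member and 1665 genes, with Ltbp1 at -0.0285, and leaving out single libraries gave 2 to 5 members. The replicate number pairs no samples (r from -0.0318 to 0.0243 over 9 same-number pairs). With a replicate block, edgeR called 5 members in that comparison, adding Tgfbr3 (-0.09, adjusted p = 0.0496) and Inhba (-0.25, adjusted p = 0.0444), and it changed no other call of a member. Log2 fold changes of Tg-RKIP against FVB reversed for Tgfbr3 to 0.15 (library size), 0.18 and 0.17 (TPM + 0.1 and TPM + 1) and for Ltbp1 to 0.0679, 0.30 and 0.28. Against the Tg-GRK2-labelled libraries they reversed for Tgfbr3 to 0.23, 0.0381 (library size without mitochondrial genes), 0.22 and 0.21, for Ltbp1 to 0.16 and 0.15 (TPM) and for Tgfbr2 to -0.0461 and -0.0443 (TPM). The causes were not tested.

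Reads in place of TPM moved the differences in family shares (Tg-RKIP minus FVB, percentage points) to -12.6 for Tgfb1, 7.79 for Tgfb3, 0.868 for Tgfbr1, 5.94 for Tgfbr2 (from -1.60, a change of sign), -6.81 for Tgfbr3, -34.1 for Ltbp1, 27.4 for Ltbp2 and 6.68 for Ltbp3. The most abundant transcript alone gave -1.07 for Tgfbr1, which reversed, 12.8 for Tgfbr2, again of the opposite sign, -11.7 for Tgfbr3, -26.9 for Ltbp1, 26.7 for Ltbp2 and 0.106 for Ltbp3. The difference in the ligand to receptor ratio became 0.543 with reads and 0.917 with the most abundant transcript. By reads, transcript shares differed by 0.489 for Tgfbr1_2, 28.7 for Tgfbr2_1, -28.7 for Tgfbr2_2, 0.0923 for Tgfbr3_3, 5.32 for Ltbp1_9, which reversed, 16.7 for Ltbp1_4, 1.38 for Ltbp2_5, -3.30 for Ltbp2_6 and 13.8 for Ltbp3_6.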
